A study of Homo sapiens with 10 samples.

Results

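SNORD26, a small nucleolar RNA (snoRNA), and 8 genes that carry snoRNAs in their introns, SNHG1, SNHG3, SNHG5, SNHG6, SNHG7, SNHG8, SNHG12 and GAS5, were followed through 10 RNA-seq samples of breast cancer cell lines. They were taken by gene symbol, 9 of the 23426 gene rows, and all 9 symbols were in every sample. SNORD26 was chosen by its values in MDA-MB-468, where it was at 0 FPKM in DMSO and high in PKC412. Those values are therefore given as a description with no test, and the host genes were added around it with results from these samples known. Expression was in FPKM, fragments scaled to transcript length and to the mapped fragments of the sample.

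MDA-MB-468 is a breast cancer line of the basal subtype and ZR75-1 one of the luminal subtype. Each was kept for 6 h in DMSO, the vehicle, or in 1 µM PKC412 (midostaurin), a staurosporine derivative that inhibits many kinases. The dose is that of the labels and the study's methods, and some figure legends of the study give a lower one for this experiment. DMSO had 2 samples and PKC412 had 3 in each line, with no other genotype or agent in any group, and each subtype is represented by 1 line. Both treatments were described by the authors as done 3 times, so fewer DMSO samples were at hand than described. The study's methods describe repeated treatments with RNA extracted afterwards, but neither they nor the labels say whether the numbered samples were independent cultures, so that p-values measure only the spread between these samples, which may be technical. The 5 basal markers summed to between 2290 and 2510 FPKM in MDA-MB-468 and between 19.5 and 25.7 in ZR75-1, where EGFR, KRT5, KRT17 and VIM stayed under 1 FPKM. The fifth basal marker, CDH3, went the other way, with 9.56 to 11.6 FPKM in MDA-MB-468 and 17.9 to 25.2 in ZR75-1. The 5 luminal markers summed to between 3030 and 4770 FPKM in ZR75-1 and between 949 and 1830 in MDA-MB-468, where ESR1 stayed under 1 FPKM. Total depth is not given in the sources used here. FPKM values summed to between 599228 and 835069 per sample.

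Box C/D snoRNAs such as SNORD26 guide the methylation of ribosomal RNA, and box H/ACA snoRNAs guide pseudouridylation. Most human snoRNAs are not transcribed from promoters of their own: they are cut out of the introns of a host gene after splicing. SNHG1 and GAS5 are host genes whose spliced RNA codes for no known protein and is short-lived because nonsense-mediated decay removes it, while the snoRNAs from their introns are protected by bound proteins and persist. Host RNA and snoRNA levels can therefore differ widely in the same cell.

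The gene tables give no coordinates. By symbol, GENCODE 29 (GRCh38) places SNHG1 on the minus strand at chr11:62851988-62855914 and SNORD26, 75 nt long, inside it at chr11:62855292-62855366, starting 548 bases from the start of SNHG1. The gene carries 8 snoRNA symbols of the tables, of which GENCODE 29 lists 6 under the same name. Read from the start of SNHG1, their order is SNORD25, SNORD26, SNORD27, SNORD28, SNORD30 and SNORD22. The sequences of SNORD26 and of the 4 other short ones are shown because they mark out the few bases from which a fragment can be assigned to each row. They are written 5′ to 3′ from the minus strand of GRCh38, as DNA letters of the GENCODE transcripts, and the capitals mark the TGAT at the core of box C and the CTGA of box D, searched on the transcript strand only. Both were found in the first and last 20 bases of 86.1% of 266 SNORD transcripts of at most 150 nt.
SNORD25: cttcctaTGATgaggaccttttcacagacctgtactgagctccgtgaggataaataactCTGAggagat
SNORD26: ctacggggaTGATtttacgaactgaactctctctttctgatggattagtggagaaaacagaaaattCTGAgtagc
SNORD27: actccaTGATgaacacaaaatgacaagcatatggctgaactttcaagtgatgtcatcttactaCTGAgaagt
SNORD28: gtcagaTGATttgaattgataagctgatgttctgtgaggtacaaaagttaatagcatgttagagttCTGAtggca
SNORD30: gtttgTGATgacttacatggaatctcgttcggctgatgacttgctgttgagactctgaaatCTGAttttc
They lie at chr11:62855564-62855632 (SNORD25, 69 nt), chr11:62855012-62855083 (SNORD27, 72 nt), chr11:62854621-62854695 (SNORD28, 75 nt) and chr11:62853663-62853732 (SNORD30, 70 nt). Of the 25 SNHG1 transcripts in GENCODE 29, 19 had SNORD26 in an intron, 5 did not reach it, and 1 held the whole of it within an exon. Stretches of 30 bases from SNORD26 occurred in that 1 SNHG1 transcript and in no transcript of another gene. A fragment from these bases could therefore belong to SNORD26 or to an SNHG1 RNA that kept the intron, and how the authors' counting assigned such fragments is not given in the sources used here. The other snoRNAs listed also met exons of some SNHG1 transcripts. An exon held SNORD25 whole in 5 transcripts, SNORD27 in 4, SNORD22 in 2 and SNORD28 in 1, and SNORD30 lay partly in an exon of 1.

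SNORD26 was at 0 FPKM in both DMSO samples of MDA-MB-468 and at 195.4, 289.4 and 274.2 FPKM in its PKC412 samples 1, 2 and 3. In ZR75-1 it was at 0 FPKM in all 5 samples. It was thus listed above 0 in 3 samples only, all of one group, with a mean of 253 ± 50.5 FPKM (SD, n = 3). No fold change is given against a group listed at 0. Its host SNHG1 was above 0 in all 10 samples. Among the 3 PKC412 samples of MDA-MB-468, sample 2 had the highest SNORD26 value beside the lowest SNHG1 value, 235.8 FPKM, and sample 1 had the lowest SNORD26 value beside the highest SNHG1 value, 272.4 FPKM. This order in 3 samples was not tested, and the SNORD26 values come in a few coarse steps, as described below.

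**Figure D1:**
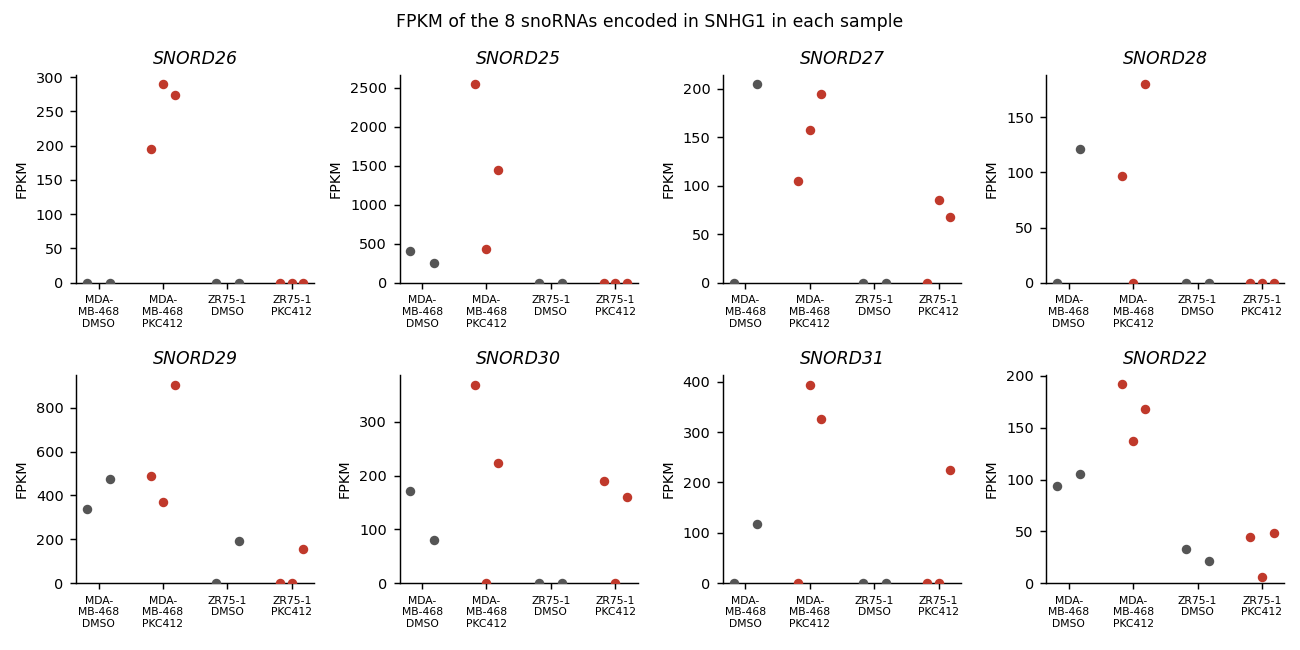
FPKM (vertical axis, linear from 0, a scale of its own in each panel) of the 8 snoRNAs encoded in SNHG1, by cell line and treatment (horizontal axis). Each point is 1 sample, DMSO grey and PKC412 red. SNORD26 stands between 195.4 and 289.4 in the PKC412 samples of MDA-MB-468 and at 0 elsewhere, and SNORD27, SNORD28, SNORD30 and SNORD31 hold zeros and values near 100 or more within 1 group of MDA-MB-468.

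Values of such short rows moved in steps. For 319 annotated rows of at most 150 nt (SNORD, SNORA, SCARNA and miRNA symbols), a factor was estimated for each sample from the most common ratio between samples. These factors ran from 0.839 to 1.33. After division by them, the 15 values above 0 of the 5 SNORD rows of 75 nt all lay within 0.15 of a whole multiple of 1 shared unit of 73.6, at most 4 units high. The unit was the one that brought these same 15 values nearest to whole multiples, and the factors came from rows that include them. Their closeness is therefore partly built in and is no test. SNORD26 stood at 2.0, 3.97 and 3.01 units in PKC412 samples 1, 2 and 3 of MDA-MB-468, that is at 2, 4 and 3 steps. SNORD24, hosted in RPL7A, and SNORD28 stood at 1 or 2 steps in each sample where they were above 0, and SNORD110 and SNORD59A did as well.

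How many fragments make up 1 step is not given in the sources used here. One step was worth 68.0 and 63.0 FPKM in the 2 DMSO samples of MDA-MB-468, and 97.9, 72.9 and 91.0 FPKM in the 3 PKC412 samples. If 1 step is 1 fragment, a value of 0 allows up to 3 steps, or 204 and 189 FPKM in the DMSO samples, by counting error alone. The PKC412 values of SNORD26 in MDA-MB-468, from 195.4 to 289.4 FPKM or 2 to 4 steps, carry counting error of their own. As the row was chosen by this contrast, they were not tested against these limits. In ZR75-1 the same limit ran from 185 to 236 FPKM. A level of 195.4 FPKM would have been under the limit in 3 of the 5 samples, and one of 289.4 above it in all 5. Each limit is for 1 sample alone, and zeros in several samples together allow less. No joint limit was worked out, so these values do not show that ZR75-1 could hold 195.4 FPKM unseen.

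**Figure D2:**
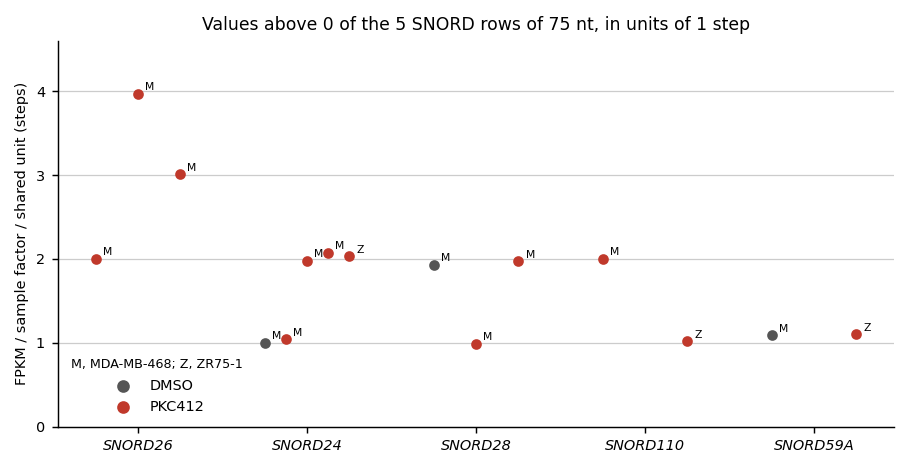
Values above 0 of the 5 SNORD rows of 75 nt (horizontal axis), as FPKM divided by the sample's factor and by the shared unit (vertical axis, in steps). Each point is 1 sample, DMSO grey and PKC412 red, marked M for MDA-MB-468 and Z for ZR75-1. The points lie on or near whole steps, with SNORD26 at 2, 3 and 4 and every other point at 1 or 2. The shared unit was fitted to these same points.

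None of the other 7 snoRNAs of SNHG1 passed from 0 in all DMSO samples to above 0 in all PKC412 samples of MDA-MB-468. SNORD26 was chosen by that trait. All 7 had higher means in PKC412 there, as SNHG1 had. Their ratios to DMSO ran from 1.44 (SNORD29) to 4.47 (SNORD25), beside 1.63 for SNHG1. These ratios were not divided by the factors of the short rows, which were higher in PKC412 too. The factors were 0.924 and 0.857 in DMSO and 1.33, 0.99 and 1.237 in PKC412. The part of this shared shift in the ratios was not tested. In MDA-MB-468, 3 of the 7 were above 0 in every sample and 4 were at 0 in some samples, in both treatments for 2 of these. SNORD25, the one nearest the start of SNHG1, was at 406.6 and 254.1 FPKM in DMSO and at 2542, 437.4 and 1450 in PKC412, the highest FPKM of the 8 in PKC412. SNORD22, the longest of the 6 at 126 nt, was at 94.12 and 105.7 FPKM in DMSO and at 191.8, 137.2 and 168.0 in PKC412. For these 2 the treatments did not overlap, PKC412 being higher, as they did not overlap in that direction for 39.6% of all 16071 genes tested. Stretches of 30 bases from SNORD25 occurred in 5 SNHG1 transcripts and from SNORD22 in 3. Fragments of SNHG1 RNA could therefore be counted in these rows, which was not tested.

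SNORD27, the next snoRNA after SNORD26 in the gene, was at 0 and 204.7 FPKM in DMSO and at 104.6, 157.6 and 194.4 in PKC412. SNORD28 was at 0 and 121.6 FPKM in DMSO and at 97.08, 0 and 179.8 in PKC412. SNORD31 was at 0 and 116.8 FPKM in DMSO and at 0, 394.1 and 326.9 in PKC412. These rows passed from 0 to over 100 FPKM between samples of 1 group, as SNORD26 did between treatments.

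SNORD30 was at 172.2 and 79.23 FPKM in DMSO and at 369.4, 0 and 224.3 in PKC412. SNORD29 was at 338.8 and 476.7 FPKM in DMSO and at 490.8, 369.2 and 905.1 in PKC412. In both the treatments overlapped. None of the 7 passed the test (limma on log2(FPKM + 1), Benjamini-Hochberg adjusted p, threshold 0.05), and 1 had an unadjusted p under 0.05. The lowest adjusted p was 0.233, for SNORD25, with a log2 change of 1.86 (SE 0.61).

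In ZR75-1, SNORD22 was the only one of these 7 above 0 in every sample, at 32.87 and 21.35 FPKM in DMSO and 44.87, 5.483 and 48.31 in PKC412. SNORD25 and SNORD28, like SNORD26, were at 0 in all 5, and the 4 others were above 0 in some samples. Summed without SNORD26, the snoRNAs of SNHG1 came to 1011.7 and 1358.8 FPKM in DMSO and to 3796.0, 1495.5 and 3448.8 in PKC412 in MDA-MB-468. In ZR75-1 the sums were 32.9 and 212.5 FPKM in DMSO and 235.3, 90.5 and 656.4 in PKC412. The treatments did not overlap in MDA-MB-468 and overlapped in ZR75-1, and SNORD25 made up most of the highest sum. Of all genes tested, 39.6% were higher in PKC412 without overlap in MDA-MB-468. These sums were not divided by the factors of the short rows, 0.857 for DMSO sample 2 and 0.99 for PKC412 sample 2 of MDA-MB-468. Divided by them, the sum of this DMSO sample is above that of this PKC412 sample, so that the treatments overlap there too.

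Rows that pass from 0 to a high value were common among the 1652 short rows of the tables, of which 402 were above 0 in any sample. In MDA-MB-468, 171 rows exceeded 10 FPKM in at least 1 DMSO sample, and 34.5% of these were at 0 in the other. Of 207 rows that exceeded 10 FPKM in at least 1 PKC412 sample, 55.6% were at 0 in at least 1 other. In ZR75-1 the shares were 36.2% and 56.4%.

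In MDA-MB-468, 2 short rows were at 0 in both DMSO samples and above 10 FPKM in all 3 PKC412 samples, SNORD26 and SNORD16. SNORD16, hosted in RPL4, reached 26.29, 39.60 and 24.24 FPKM. The reverse pattern was found for 5 rows, led by SNORD42B (122.6 and 115.5 FPKM in DMSO), SNORD4B (87.58 and 80.76), MIR3074 (40.54 and 38.41) and MIR93 (37.33 and 35.40), each at 0 in all 3 PKC412 samples. In ZR75-1, SNORD52 and MIR631 were at 0 in DMSO and above 10 FPKM in every PKC412 sample, and MIR4750 showed the reverse. Of these rows at 0 in DMSO and above 10 FPKM in all PKC412 samples of a line, SNORD26 had the highest mean in PKC412. As SNORD26 was chosen by this trait, its place is a description only.

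SNHG1, the host of SNORD26, had higher values in PKC412 in MDA-MB-468, at 132.6 and 183.1 FPKM in DMSO and at 272.4, 235.8 and 263.4 in PKC412. The treatments did not overlap, and the means were 157.8 ± 35.7 (SD, n = 2) and 257.2 ± 19.1 (SD, n = 3). In ZR75-1, SNHG1 was at 10.16 and 14.88 FPKM in DMSO and at 21.37, 12.94 and 22.43 in PKC412, and the treatments overlapped. The log2 change was 0.72 (SE 0.26, 95% interval 0.12 to 1.32, unadjusted p = 0.025, adjusted p = 0.26 by limma) in MDA-MB-468. It was 0.54 (SE 0.26, 95% interval -0.06 to 1.14, adjusted p = 0.489 by limma) in ZR75-1. The difference of the changes was 0.17 (SE 0.37, adjusted p = 0.952 by limma), so that neither change, nor a difference between lines, passed the test.

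SNHG1 levels moved with the GC slope of the samples, the change of log2 FPKM with the GC content of the transcripts relative to the mean of the line. In MDA-MB-468 the slopes per 10 points of GC were 0.373 and 0.057 in DMSO and -0.287, -0.024 and -0.119 in PKC412, and the 5 SNHG1 values ran in exactly the reverse order. In ZR75-1 they were 0.314 and -0.192 in DMSO and -0.107, 0.342 and -0.356 in PKC412, and the 2 samples with positive slopes had the 2 lowest SNHG1 values. The transcript taken for SNHG1 had 43.1% GC. With FPKM adjusted for GC and length, the log2 change of SNHG1 was 0.20 (adjusted p = 0.338 by limma) in MDA-MB-468 and 0.34 (adjusted p = 0.198) in ZR75-1, and with median-ratio rescaling 0.38 and 0.35. Without the first DMSO sample of MDA-MB-468 it was 0.49 there, and without the second 0.95. The part of GC content in the SNHG1 values was not tested.

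**Figure D3:**
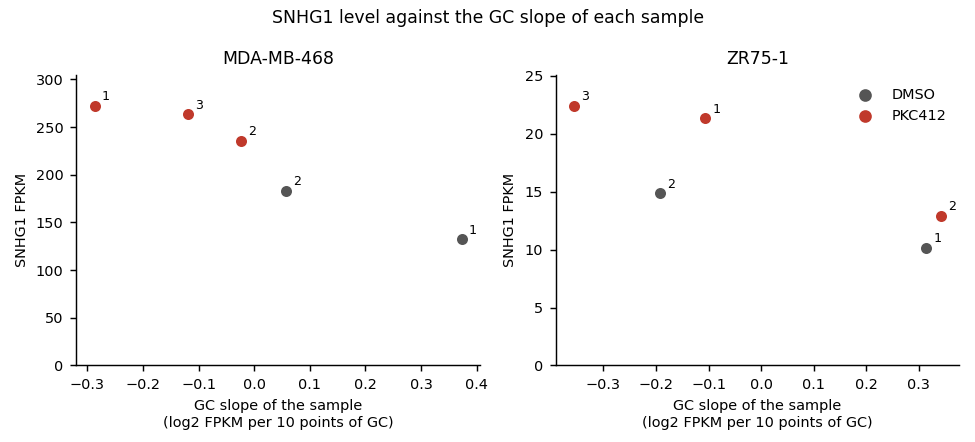
SNHG1 FPKM (vertical axes, linear from 0, different in the 2 panels) against the GC slope of each sample (horizontal axis, log2 FPKM per 10 points of GC), in MDA-MB-468 (left) and ZR75-1 (right). Each point is 1 sample with its replicate number, DMSO grey and PKC412 red. In MDA-MB-468 the level falls from 272.4 at a slope of -0.287 to 132.6 at 0.373.

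The genes beside SNHG1 had values on different sides of DMSO. SLC3A2, which starts next to SNHG1 on the other strand and codes for an amino acid transporter subunit, was at 175.5 and 162.7 FPKM in DMSO and at 229.6, 223.4 and 240.1 in PKC412 in MDA-MB-468 (log2 change 0.45, SE 0.11, adjusted p = 0.116 by limma). WDR74, a ribosome assembly factor downstream on the same strand, was at 130.5 and 110.1 FPKM in DMSO and at 69.57, 96.75 and 80.61 in PKC412 (log2 change -0.55, SE 0.24, adjusted p = 0.305 by limma). Neither passed the test, and the treatments did not overlap in either. STX5, beyond WDR74, was also higher without overlap (ratio of means 1.21), as was CHRM1, under 1 FPKM in all samples. Over all genes tested, 39.6% were higher and 16.3% lower without overlap in MDA-MB-468. In ZR75-1, SLC3A2 (1.15) and STX5 (1.21) were higher without overlap, against 14.8% of all genes, and WDR74 and CHRM1 overlapped. None of the 4 passed in either line.

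By likeness of pattern, the 5 genes of 11144 with a mean FPKM over 1 that came closest to SNHG1 were CLK1, C1orf63, TPST1, HSD17B7P2 and ARG2, with Pearson r between 0.976 and 0.99 over the 10 samples, each line centred on its own mean. SNORD26 had r = 0.62 with SNHG1 and stood at place 5278 in that order. Among those closest to SNORD26 were IL1RN, RND1, NEFH and IL20RA, with r between 0.978 and 0.988, and SNHG1 stood at place 878. These r are descriptions: all genes were measured in the same 10 samples and under the same treatments, and for SNORD26 only the contrast of MDA-MB-468 carries a value.

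None of the 8 host genes passed the test for PKC412 in either line. In MDA-MB-468, 0 of 8 had an adjusted p under 0.05 by limma against 1.26% of the 16071 genes tested, 1 (SNHG1) had an unadjusted p under 0.05, and adjusted p ran from 0.26 to 0.973. An unadjusted p under 0.05 was found for 16.4% of all genes in MDA-MB-468, 11.2% in ZR75-1 and 7.05% for the difference between lines. In ZR75-1, 0 of 8 passed against 0.946% of all genes, and none had an unadjusted p under 0.05. SNORD26, at 0 in all ZR75-1 samples, had no change to test there. For the difference between the 2 lines, 0 of 8 passed against 0.268% of all genes, and 1 (SNHG3) had an unadjusted p under 0.05. The median log2 change of the 8 was -0.22 in MDA-MB-468 beside 0.11 over all genes, and -0.06 in ZR75-1 beside 0.07. After median-ratio rescaling the median of the 8 was -0.54 in MDA-MB-468 beside -0.02 over all genes, and -0.27 in ZR75-1 beside -0.01.

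GAS5, the host of 10 snoRNAs and a transcript that accumulates in growth-arrested cells, was the most abundant of the 8 in MDA-MB-468. It was at 553.0 and 544.4 FPKM in DMSO and at 386.8, 560.8 and 455.1 in PKC412 there, and at 121.9 and 98.50 in DMSO and 112.3, 124.3 and 96.10 in PKC412 in ZR75-1. The treatments overlapped in both lines, with log2 changes of -0.25 (SE 0.18) and 0.01 (SE 0.18).

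Of the 10 snoRNA rows of GAS5, 3 were above 0 in every sample of MDA-MB-468 and 3 in some samples only. The other 4 of the 10 rows, SNORD75, SNORD77, SNORD78 and SNORD81, were at 0 in all samples, as they were in ZR75-1. SNORD47 was at 492.6 and 629.8 FPKM in DMSO and at 179.8, 194.1 and 83.62 in PKC412 in MDA-MB-468, with no overlap, while in ZR75-1 it ranged from 70.03 to 386.7 with overlap. SNORD80 was at 493.3 and 0 FPKM in the 2 DMSO samples of MDA-MB-468. None of the 6 rows tested passed in either line (lowest adjusted p 0.253 by limma).

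SNHG6 and SNHG8, hosts of SNORD87 and SNORA24, had lower means in PKC412 in both lines, although the log2 change of SNHG6 in ZR75-1 was -0.07 after GC and length adjustment and 0.07 with the replicate block added. SNHG6 was at 213.5 and 221.3 FPKM in DMSO and at 159.8, 206.1 and 174.2 in PKC412 in MDA-MB-468, and at 93.40 and 89.05 in DMSO and 86.50, 78.21 and 64.23 in PKC412 in ZR75-1. SNHG8 was at 289.0 and 288.4 FPKM in DMSO and at 177.4, 292.9 and 195.8 in PKC412 in MDA-MB-468, and at 377.3 and 319.2 in DMSO and 305.0, 264.0 and 236.9 in PKC412 in ZR75-1. The treatments did not overlap for SNHG6 in both lines and for SNHG8 in ZR75-1, and overlapped for SNHG8 in MDA-MB-468 through PKC412 sample 2. The log2 changes were -0.28 (SE 0.15) and -0.26 (SE 0.15) for SNHG6 and -0.41 (SE 0.22) and -0.38 (SE 0.22) for SNHG8, in MDA-MB-468 and ZR75-1.

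SNHG3, host of box H/ACA snoRNAs, was at 15.92 and 14.88 FPKM in DMSO and at 13.27, 12.88 and 13.93 in PKC412 in MDA-MB-468, without overlap. In ZR75-1 it was at 7.71 and 9.41 FPKM in DMSO and at 11.14, 8.93 and 11.43 in PKC412, with overlap. The log2 changes were -0.19 (SE 0.14) and 0.27 (SE 0.14), and their difference was -0.46 (SE 0.20, unadjusted p = 0.0492, adjusted p = 0.709 by limma).

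SNHG5, SNHG7 and SNHG12 overlapped between treatments in both lines. SNHG5, host of SNORD50A and SNORD50B, was at 128.6 and 129.5 FPKM in DMSO and at 84.78, 152.6 and 99.62 in PKC412 in MDA-MB-468, and between 31.81 and 39.47 in ZR75-1. SNHG7 ran from 57.38 to 71.60 FPKM in MDA-MB-468 and from 57.19 to 104.0 in ZR75-1. SNHG12 ran from 27.73 to 39.09 FPKM in MDA-MB-468 and from 11.64 to 20.72 in ZR75-1. Of the 10 snoRNA rows hosted by the members other than SNHG1 and GAS5, 0 passed for PKC412 in either line by limma, with 1 and 2 at an unadjusted p under 0.05.

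Over the 8 host genes, the treatments did not overlap for 1 gene higher in PKC412 (SNHG1) and 2 lower (SNHG3 and SNHG6) in MDA-MB-468. Over all genes tested, 39.6% were higher and 16.3% lower without overlap there. In ZR75-1, none of the 8 was higher and 2 (SNHG6 and SNHG8) were lower without overlap, against 14.8% and 6.98% of all genes. In MDA-MB-468, PKC412 sample 2 held the highest PKC412 value for each of the 6 hosts other than SNHG1 and SNHG3.

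**Figure D4:**
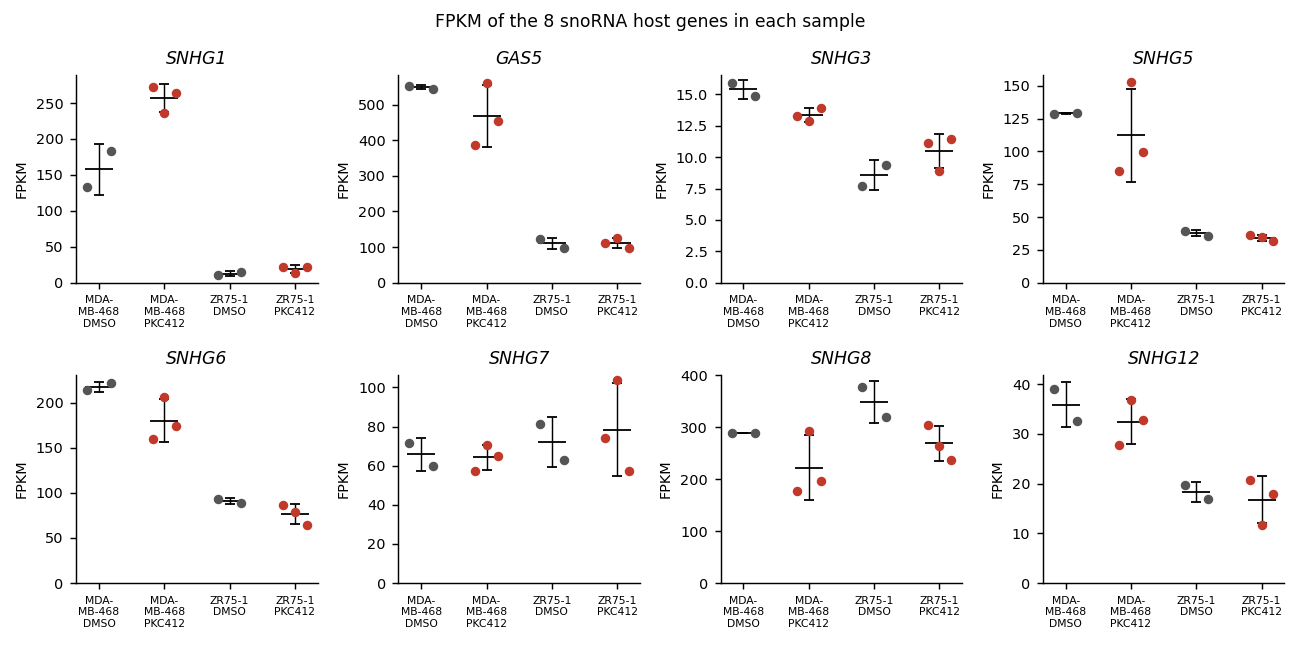
FPKM (vertical axes, linear from 0, a scale of its own in each panel) of the 8 host genes by cell line and treatment. Points are samples, DMSO grey (n = 2) and PKC412 red (n = 3), with the mean and SD of each group in black. SNHG1 in MDA-MB-468 stands apart by treatment, and SNHG1, GAS5, SNHG3, SNHG5, SNHG6 and SNHG12 stand apart by line.

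**Figure D5:**
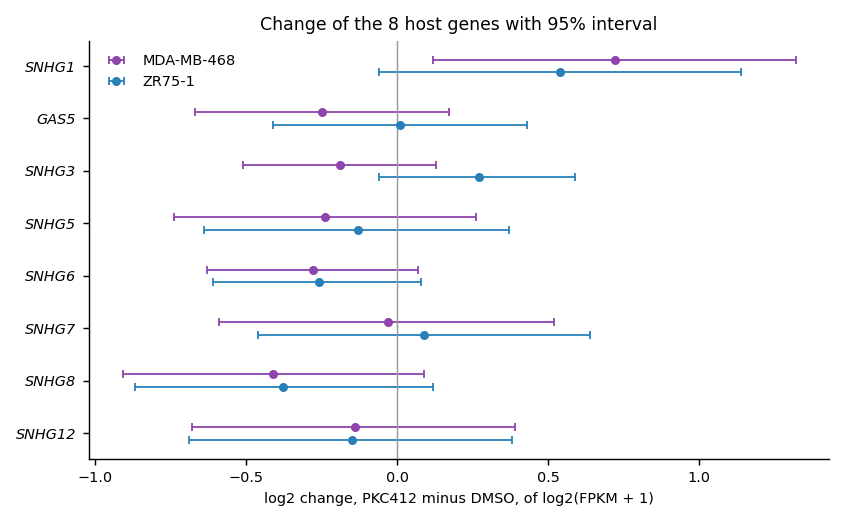
Log2 change, PKC412 minus DMSO, of log2(FPKM + 1) for each host gene (horizontal axis) in MDA-MB-468 (purple) and ZR75-1 (blue), with the 95% interval of the limma fit as bars. The interval of SNHG1 in MDA-MB-468, from 0.12 to 1.32, is the only one that leaves out 0 before adjustment over all genes.

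In DMSO, 6 of the 8 host genes were higher in MDA-MB-468 than in ZR75-1 at an adjusted p under 0.05 by limma and none was lower, or 75% of the hosts against 42.4% of all genes. SNHG1 showed the widest gap, at 157.8 FPKM against 12.52 FPKM on average, with a log2 difference of 3.56 (SE 0.29, adjusted p = 2.74e-05). GAS5 followed with 2.31 (SE 0.20, adjusted p = 4.01e-05), SNHG5 with 1.75 (SE 0.24, adjusted p = 0.000533) and SNHG6 with 1.24 (SE 0.17, adjusted p = 0.000469). SNHG12 had 0.93 (SE 0.26, adjusted p = 0.0191) and SNHG3 0.78 (SE 0.15, adjusted p = 0.00371).

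SNHG7 and SNHG8 did not pass the test between lines, at -0.13 (95% interval -0.73 to 0.48) and -0.26 (95% interval -0.81 to 0.28). With median-ratio rescaling 3 of the 8 passed, SNHG1, SNHG5 and GAS5. SNHG12 also lost its call without the first DMSO sample of MDA-MB-468 (adjusted p = 0.106 by limma) and without the second DMSO sample of ZR75-1 (adjusted p = 0.0882). In bulk samples, more RNA per cell and more cells that express a gene cannot be told apart.

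The other host genes, particle proteins and decay factors listed here passed the test for PKC412 in neither line. Of 10 other non-coding or snoRNA-rich hosts tested, 0 passed in MDA-MB-468 and 0 in ZR75-1 by limma, with 2 and 1 at an unadjusted p under 0.05. Of 38 protein-coding hosts, most of them ribosomal protein genes, 0 passed in either line, with 1 and 3 at an unadjusted p under 0.05, and their median log2 change was -0.22 and -0.19. The 2 most abundant, RPS2 and RPS12, had log2 changes of -0.44 (SE 0.31) and -0.44 (SE 0.26) in MDA-MB-468.

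The 4 core proteins of box C/D particles gave 0 calls in either line, with 2 and 0 at an unadjusted p under 0.05. FBL, the methyltransferase that SNORD26 and its kin guide, was at 978 and 832 FPKM in DMSO and at 508, 715 and 616 in PKC412 in MDA-MB-468 (log2 change -0.57, SE 0.24, adjusted p = 0.297 by limma). NHP2L1, which binds the snoRNA first, had a log2 change of -0.12 (SE 0.10). The 4 core proteins of box H/ACA particles gave 0 calls too, with 1 and 0 at an unadjusted p under 0.05.

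The 10 assembly factors of these particles gave 0 calls in either line (0 and 1 at an unadjusted p under 0.05), and so did the 10 factors of nonsense-mediated decay (1 and 2 at an unadjusted p under 0.05). SMG9, a decay factor and one of the 2 most abundant, had log2 changes of -0.33 (SE 0.12, adjusted p = 0.267 by limma) in MDA-MB-468 and 0.32 (SE 0.12, adjusted p = 0.4) in ZR75-1.

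Between lines in DMSO, 5 of the 10 other hosts passed higher in MDA-MB-468 and 1 lower, led by SNHG15 (log2 difference 2.86, SE 0.22, adjusted p = 2.01e-05 by limma) and C6orf48 (2.81, SE 0.20, adjusted p = 1.39e-05). Of the 4 box C/D core proteins 3 were higher in MDA-MB-468 and none lower, with NHP2L1 at 1.44 (SE 0.11, adjusted p = 2.16e-05 by limma). Of the 38 protein-coding hosts 8 were higher and 6 lower. Over all genes, 42.4% passed in this contrast, in either direction. SNORD25, of the 7 other snoRNAs of SNHG1, was the only one that passed between lines, with 0 in both DMSO samples of ZR75-1.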

How the data were processed

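RNA of the 10 samples was sequenced by the authors on an Illumina HiSeq2000 after TruSeq library preparation, and the submitters' processing notes name CASAVA 1.82, TopHat2 and build hg19. The study's methods do not say whether polyadenylated RNA or a fragment size was selected. How far RNAs as short as snoRNAs were captured is therefore not known, and the FPKM of short rows need not measure their abundance. The deposited values are FPKM per gene symbol from an in-house pipeline of the authors. The annotation, strand setting and handling of fragments shared by overlapping rows are not given in the sources used here. The members and lists were chosen with earlier results of these data known.

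Every test was fitted over all genes with a mean above 0.1 FPKM in at least 1 group (16071), on log2(FPKM + 1), with limma 3.58.1 (R 4.3.3): 4 group means, trended empirical Bayes, 6 residual degrees of freedom, two-sided, Benjamini-Hochberg adjustment, threshold 0.05. A fold change on this scale understates that of low genes. An exact permutation of 2 against 3 samples allows no p below 0.1, so none was run. Named genes were the 9 members, the snoRNAs and neighbours of SNHG1, up to 4 called genes of each list (or its 2 most abundant), short rows at 0 in 1 treatment and above 10 FPKM in the other, and the 5 genes most like SNHG1 and SNORD26, of which 1 is not reported here. The fit and the step factors were tested on simulated data. GENCODE 29 matched 88.1% of the 23426 symbols, which served the GC and length adjustment (third-degree polynomials). Python 3.11.15 was used for the rest. Alternatives were a pseudocount of 0.1, 2 other filters, median-ratio rescaling, GC and length adjustment, a replicate block and leaving out each sample.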

Additional observations from a re-analysis of the deposited data

How the results depend on the processing

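Under the 17 alternatives, no host gene passed for PKC412 in either line or for the difference between lines. For the DMSO level, 3 of the 8 host genes passed with median-ratio rescaling instead of 6, 4 with the replicate block and 5 with the GC and length adjustment plus the block. SNHG1, SNHG5 and GAS5 passed under all 17. The mean of SNORD26 in the PKC412 samples of MDA-MB-468 was 200.5 FPKM after median-ratio rescaling instead of 253, and between 234.8 and 281.8 when 1 sample was left out. Over all genes, the count of calls ran from 0 with the replicate block to 578 with the GC and length adjustment in MDA-MB-468, where it was 202, and from 0 to 452 in ZR75-1, where it was 152. For the difference it ran from 0 to 210 around 43, and for the DMSO level from 3755 to 9505 around 6822. Deviations of same-numbered DMSO and PKC412 samples from their group means correlated at -0.69 and -0.61 in MDA-MB-468 and at 0.12 and -0.63 in ZR75-1, over 7685 genes. With 2 DMSO samples per line their deviations mirror each other, so these r cannot decide whether the numbers pair the samples. The block left 2 residual degrees of freedom. The log2 change of SNHG1 in MDA-MB-468 ran from 0.18 to 0.95 over the 17 alternatives, and the cause was not tested. With 2 DMSO samples per line and values of a few steps, the short rows cannot show a difference of the size of their own steps.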
